A study of Mus musculus with 6 samples.

Results

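The potassium channel genes of the mouse left ventricle were followed through pressure overload. The genes were chosen by symbol: each row of the array table whose annotation gives exactly 1 symbol, starting with Kcn, was taken, with the row of the highest mean kept for each gene. This gave 73 genes on 74 rows, out of 14860 genes with a row of their own and 23332 rows in all. Kcnc1 was the gene with more than 1 row. A gene with a mean log2 signal of 6 or more over the 6 arrays was treated as expressed, which held for 22 of the 73 potassium channel genes and 7276 of the 14860 genes.

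Left ventricles came from male wild-type C57BL/6 mice, whose age the sources do not state. In the 1 W TAC group (2 mice) the transverse aorta had been ligated for 1 week, which makes the left ventricle pump against a higher pressure, and in the 4 W TAC group (2 mice) for 4 weeks. The Sham group (2 mice) had the operation without the constriction. The sources do not state how long after the sham operation tissue was taken, and both TAC groups share the same 2 Sham arrays as their control. Total RNA of each ventricle was hybridized to 1 Affymetrix Mouse Exon 1.0 ST array, and the deposited values are log2 signals per gene. A difference of 1 on this scale is a factor of 2 in signal.

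Potassium channels carry the outward current that returns the heart muscle cell to its resting voltage after each beat. In the mouse ventricle a fast transient outward current and several delayed rectifier currents shorten the action potential, inward rectifiers hold the resting voltage, and background, calcium-activated and ATP-sensitive channels adjust both. Each channel is built from pore-forming subunits, often with accessory subunits that set how many channels reach the membrane and how fast they open and close. A longer action potential with smaller potassium currents is a known feature of hypertrophied ventricle.

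The labels were checked with genes known to rise with load. Nppa, which encodes atrial natriuretic peptide, had 12.90 and 13.16 in 1 W TAC ventricles and 12.69 and 12.76 in 4 W TAC ventricles, against 10.86 and 11.61 in Sham ventricles. Nppa, Nppb, Acta1 and Postn, the 4 measured genes of 5 listed, were higher in both TAC groups with no overlap with Sham. The 7 measured cardiomyocyte markers had list means of 12.47 to 12.61 on the 6 arrays. Ucp1, a defining gene of brown fat, had 4.40 and 4.18 in 1 W TAC, 6.35 and 3.96 in 4 W TAC, and 8.21 and 4.19 in Sham. By this gene, Sham array 1 and 4 W TAC array 1 stood apart. The list mean of 8 brown fat markers was 6.55 and 5.61 in Sham and 6.13 and 5.55 in 4 W TAC. In 1 W TAC it was 5.51 and 5.46. Elovl3 ran the other way in Sham and 4 W TAC, and Slc36a2 in 4 W TAC, with lower signal on array 1. Counts without Sham array 1 and 4 W TAC array 1 are given with each comparison. The list mean of 9 fibroblast markers was 10.03 and 10.18 in 1 W TAC and 9.37 and 9.64 in 4 W TAC, against 8.78 and 8.75 in Sham. At 1 week 8 of the 9 were above 0, and Gsn was lower, with 9.73 and 9.29 against 10.39 and 10.31 in Sham. The list mean of 7 macrophage markers was 7.46 and 7.80 in 1 W TAC and 6.58 and 6.88 in 4 W TAC, against 6.46 and 6.35 in Sham. In whole-ventricle RNA, fewer cells of a type and less RNA per cell cannot be told apart, and the part of these other cell types in the results below was not tested.

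A log2 ratio is the mean log2 signal of one group minus that of the other, with its standard error (SE) from limma, a linear model fitted to all rows of the table. No overlap means that both arrays of one group lay beyond both arrays of the other. Adjusted p values are from limma with Benjamini-Hochberg adjustment over all 23332 rows. With 2 arrays against 2, an exact permutation test of a single gene cannot give a two-sided p below 0.333, so such a test was not used.

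At 1 week after constriction, part of the expressed potassium channel genes had lower signal than in Sham, and none was higher by the same criteria. 6 of the 22 expressed genes were at least 1.5-fold lower in 1 W TAC with no overlap: Kcnip2, Kcnj3, Kcnd2, Kcnj11, Kcnn2 and Kcnj2. This was 27.3% of the expressed potassium channel genes, against 5.43% of all expressed genes and 5.85% of all rows. The same 6 genes had an unadjusted p under 0.05 with a 1.5-fold lower signal, against 4.93% of expressed genes and 3.86% of all rows. In the upward direction, 0 of 22 passed either criterion, while 6.36% of all rows and 7.64% of expressed genes were at least 1.5-fold higher with no overlap, and 4.85% of all rows and 6.97% of expressed genes were higher by the unadjusted p and the fold. After adjustment over all rows, 0 of the 73 potassium channel genes passed an adjusted p of 0.05 in limma, as did 0.00429% of all rows, which is 1 row. At an unadjusted p under 0.05, limma counted 12 of the 73 genes (16.4%), against 11.4% of all rows. The t-test of the methods gave 0 genes after adjustment, and by its unadjusted p and the fold it kept 2 of the 6 genes, Kcnip2 and Kcnn2. The calls rested in part on Sham array 1. Without it, 4 genes passed both criteria (Kcnip2, Kcnj3, Kcnj11 and Kcnn2), and without both Sham array 1 and 4 W TAC array 1 the unadjusted p and the fold were met by 3 genes (Kcnip2, Kcnj11 and Kcnn2).

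Irrespective of the fold, 13 of the 22 expressed genes lay wholly below Sham at 1 week, 0 wholly above and 9 overlapped. Over all rows, 20.8% lay wholly below and 19.2% wholly above, and over all expressed genes 27.8% and 22.2%. The threshold uses the mean of all 6 arrays, Sham included, so it bears on these counts for genes near it. Kcna7, 1 of the 13, had group means of 5.83 in 1 W TAC, 6.00 in 4 W TAC and 6.21 in Sham. Kcne4, with 6.10 in 1 W TAC and 5.24 in Sham, was left out. The median log2 ratio of the 22 genes was -0.30, with 17 of 22 (77.3%) below 0, against a median of -0.03 with 54.0% below 0 over all expressed genes. The median of the 22 was -0.18 without 1 W TAC array 2. The 51 potassium channel genes under the threshold had a median of 0.08.

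**Figure D1:**
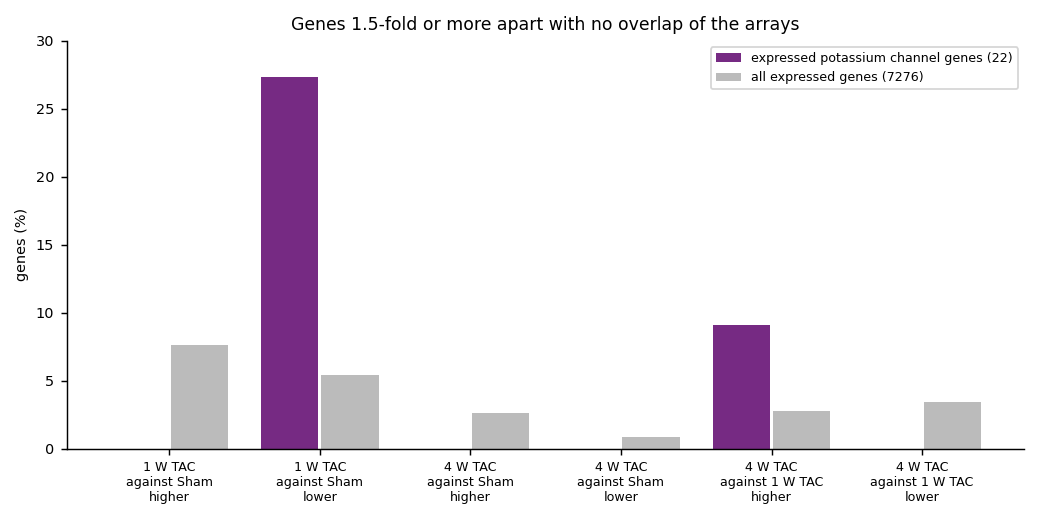
Percent of the 22 expressed potassium channel genes (purple) and of all 7276 expressed genes (grey) that were at least 1.5-fold apart with no overlap of the arrays (y axis, percent of genes), for each comparison and direction (x axis). The bar for genes lower in 1 W TAC stands at 27.3% for potassium channel genes and 5.43% for all expressed genes.

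The mean signals of the 73 genes spanned 9.42 for Kcnip2 to 2.21 for Kcnj16. Signals of different genes depend on their probes as well as on their mRNA, so this order is one of array signals. Just inside the threshold of 6 were Kcna3 at a mean of 6.21, Kcna7 at 6.01 and Kcnc1 at 6.00 (log2 signal), and just outside were Kcnk4 at 5.95, Kcnh3 at 5.92 and Kcnk2 at 5.91. The arrays of a group were close for the expressed genes: the median gap between the 2 arrays was 0.16 in 1 W TAC, 0.19 in 4 W TAC and 0.15 in Sham. Over all expressed genes it was 0.17 in 1 W TAC, 0.23 in 4 W TAC and 0.21 in Sham.

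**Figure D2:**
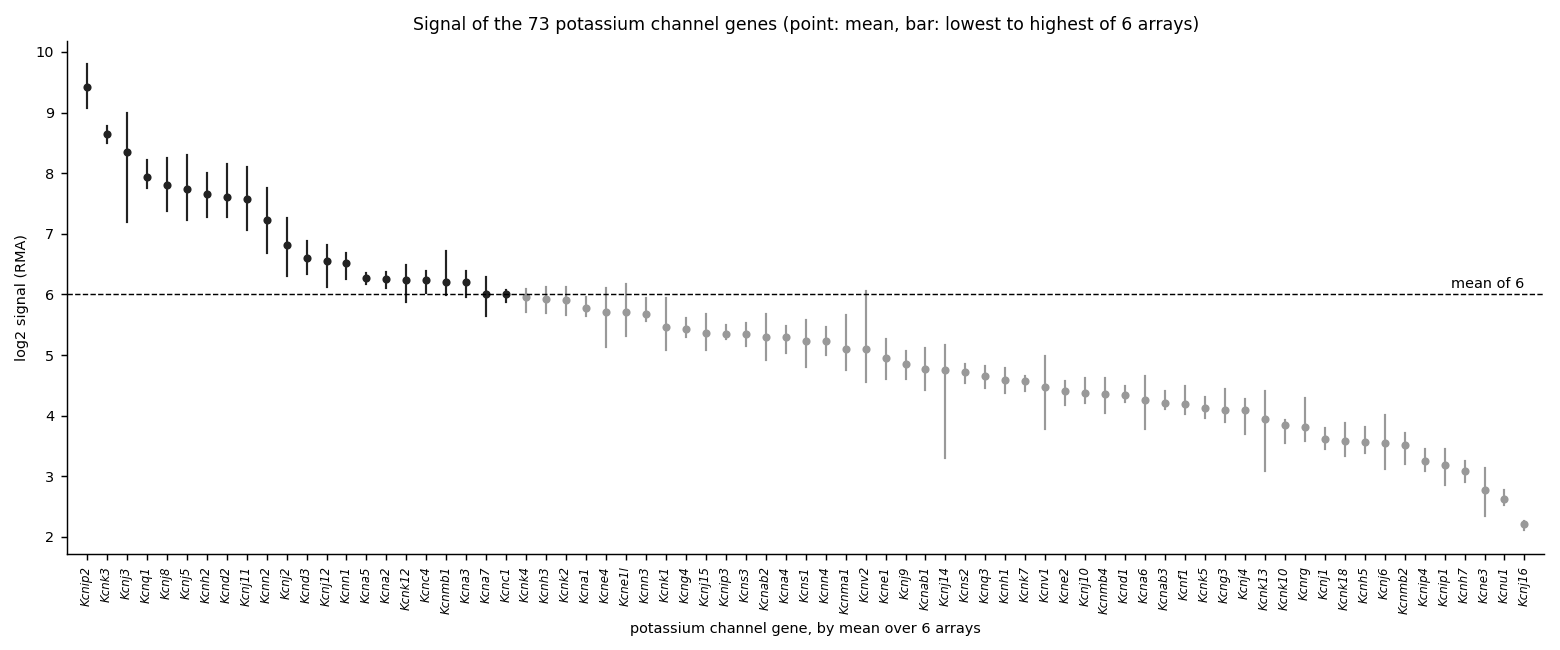
Mean log2 signal of each of the 73 potassium channel genes over the 6 arrays (point) with the lowest and highest array (bar), ordered by mean on the x axis. Black marks the 22 genes at or above the dashed line at a mean of 6 and grey the other 51.

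The transient outward current is carried in mouse ventricle by the pore subunits Kcnd2 and Kcnd3 with the calcium-binding accessory subunit Kcnip2, without which the fast component of this current is lost in mice. Kcnip2 had 9.07 and 9.12 in 1 W TAC and 9.18 and 9.53 in 4 W TAC, against 9.80 on both Sham arrays. All 4 TAC arrays lay below Sham, with the 1 W TAC arrays the lowest. The log2 ratio was -0.71 (SE 0.18, adjusted p = 0.267 by limma) at 1 week, a 1.63-fold lower signal, and -0.45 (SE 0.18, adjusted p = 0.892) at 4 weeks.

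Kcnd2 had 7.28 and 7.31 in 1 W TAC and 7.66 and 7.44 in 4 W TAC, against 8.15 and 7.76 in Sham. The groups did not overlap, but the gap between the Sham arrays was wide: the log2 ratio was -0.66 (SE 0.20, adjusted p = 0.316 by limma) at 1 week and -0.41 (SE 0.20, adjusted p = 0.939) at 4 weeks. Without Sham array 1 the 1-week log2 ratio was -0.47, short of 1.5-fold. Kcnd3 had 6.66 and 6.34 in 1 W TAC and 6.62 and 6.33 in 4 W TAC, against 6.88 and 6.78 in Sham. Its log2 ratios of -0.33 (SE 0.20) at 1 week and -0.36 (SE 0.20) at 4 weeks were alike in size and under the 1.5-fold mark, while all TAC arrays lay below both Sham arrays. The subunit of the slow transient outward current, Kcna4, was under the threshold, with 5.33 and 5.42 in 1 W TAC and 5.48 and 5.37 in 4 W TAC, against 5.12 and 5.04 in Sham. Its arrays thus lay above Sham where those of the 3 expressed genes of the fast current lay below, with a log2 ratio of 0.30 (SE 0.16, adjusted p = 0.575 by limma) at 1 week. Of the 8 measured genes of this class, Kcnip3, Kcnd1, Kcnip4 and Kcnip1 had means of 3.19 to 5.35 and log2 ratios within 0.23 of 0 in both TAC groups.

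At 1 week 8 members were at least 1.5-fold lower and 2 higher than Sham with no overlap. For 3 of them (2 lower, Kcnd2 and Kcnj2, and 1 higher, Kcne4), the 250 bases before the gene start are shown as examples. A pair of motifs bound by transcription factors known from heart muscle is marked. Kcnj11 and Kcnn2 had no sequence entry, and the others, among them Kcnip2, are not shown. Kruppel-like factors, among them Klf15, bind CACCC, and the CACGTG E-box is bound by basic helix-loop-helix factors such as the circadian clock proteins. The sequences are RefSeq's for build GRCm38.p6, on the plus strand, which is the strand of all 3 genes, 5′ to 3′. Capitals mark CACCC on either strand (GGGTG when it lies on the other strand) and CACGTG.
Kcnd2, chr6:21215096-21215345: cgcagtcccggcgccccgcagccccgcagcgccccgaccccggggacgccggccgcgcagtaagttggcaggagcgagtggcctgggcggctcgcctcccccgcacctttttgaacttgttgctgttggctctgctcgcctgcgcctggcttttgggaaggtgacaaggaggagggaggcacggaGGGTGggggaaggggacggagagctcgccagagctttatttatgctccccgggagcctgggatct
Kcnj2, chr11:111065914-111066163: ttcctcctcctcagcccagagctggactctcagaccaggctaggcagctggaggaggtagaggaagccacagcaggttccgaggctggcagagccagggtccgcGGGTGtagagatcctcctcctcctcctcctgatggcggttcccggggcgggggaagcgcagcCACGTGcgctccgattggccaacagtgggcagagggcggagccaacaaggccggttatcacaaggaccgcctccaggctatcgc
Kcne4, chr1:78816661-78816910: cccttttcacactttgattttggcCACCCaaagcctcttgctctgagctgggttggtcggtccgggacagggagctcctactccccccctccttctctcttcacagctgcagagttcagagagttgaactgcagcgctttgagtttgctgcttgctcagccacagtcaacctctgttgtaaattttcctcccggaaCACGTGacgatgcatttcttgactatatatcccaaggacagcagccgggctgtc
The window of Kcnd2 held 1 CACCC and no CACGTG, and those of Kcnj2 and Kcne4 held 1 of each, so both motifs occurred before a gene that was lower and before a gene that was higher. CACCC was common: it was found in 52.0% of 32851 windows of this length over all genes, and in 56 of 79 windows (70.9%) of the 58 potassium channel genes that had an entry. CACGTG was found in 6.02% of all windows and in 5 of the 79 (6.33%). The windows of Kcnd2 and Kcnj2 held 68.8% and 65.6% G and C bases, that of Kcne4 53.2%, against a median of 52.4% over all windows. These matches describe letters in a window and not binding.

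The inward rectifiers that set the resting voltage are built from Kcnj2 and Kcnj12. Kcnj2 had 6.52 and 6.30 in 1 W TAC and 6.85 and 7.11 in 4 W TAC, against 7.26 and 6.82 in Sham. The 1 W TAC arrays lay below Sham and the 4 W TAC arrays within it: the log2 ratio was -0.63 (SE 0.22, adjusted p = 0.377 by limma) at 1 week and -0.06 (SE 0.22) at 4 weeks. Without Sham array 1 the 1-week log2 ratio was -0.41, short of 1.5-fold. Kcnj12 had 6.46 and 6.13 in 1 W TAC and 6.78 and 6.82 in 4 W TAC, against 6.53 and 6.60 in Sham. It was the single expressed gene with all 1 W TAC arrays below Sham and all 4 W TAC arrays above, with log2 ratios of -0.27 (SE 0.18) and 0.24 (SE 0.18). Kcnj4, with a mean of 4.09, and Kcnj14 were under the threshold. Kcnj14 had 5.17 and 5.12 in 1 W TAC, 4.97 and 3.31 in 4 W TAC, and 5.16 and 4.78 in Sham, so its 4-week log2 ratio of -0.83 (SE 0.53) rested on the array at 3.31.

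Kcnj3 and Kcnj5 form the G protein-gated channel that acetylcholine opens through muscarinic receptors, which is best known from the atrium. Kcnj3 had the lowest 1-week log2 ratio of the 73 genes: 8.07 and 7.19 in 1 W TAC and 8.61 and 8.44 in 4 W TAC, against 8.99 and 8.84 in Sham. The 1 W TAC arrays were 0.88 apart, and both lay below every other array. The log2 ratio was -1.29 (SE 0.31, adjusted p = 0.247 by limma) at 1 week, a 2.44-fold lower signal, and -0.39 (SE 0.31, adjusted p = 0.971) at 4 weeks. Without 1 W TAC array 2 the 1-week log2 ratio was -0.85, and without 1 W TAC array 1 it was -1.73. Kcnj5 had 7.57 and 7.22 in 1 W TAC and 7.52 and 8.30 in 4 W TAC, against 8.11 and 7.75 in Sham. Its 1 W TAC arrays lay below Sham and its 4 W TAC arrays on either side, with log2 ratios of -0.54 (SE 0.31) and -0.02 (SE 0.31).

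The 5 measured atrial markers of 6 listed were mixed. Myl7, the atrial myosin light chain, had 6.74 and 6.33 in 1 W TAC and 7.77 and 8.92 in 4 W TAC, against 7.59 and 8.06 in Sham. Stard10 had 7.79 and 7.43 in 1 W TAC and 8.54 and 7.86 in 4 W TAC, against 8.62 and 8.75 in Sham, and Sln, sarcolipin, 5.11 and 4.71 in 1 W TAC and 6.04 and 6.36 in 4 W TAC, against 5.34 and 5.31 in Sham. Both 1 W TAC arrays lay below Sham for these 3 genes. Dkk3 ran the other way, with 7.21 and 7.27 in 1 W TAC and 7.19 and 7.65 in 4 W TAC, against 6.72 and 6.69 in Sham, and Bmp10 overlapped with Sham, with a 1-week log2 ratio of -0.21 (SE 0.50). With a 1.5-fold difference and no overlap, 2 of the 5 were lower at 1 week (Myl7 and Stard10) and 2 higher at 4 weeks (Sln and Dkk3). The shares lower at 1 week were 5.85% of all rows and 5.43% of expressed genes. Those higher at 4 weeks were 3.01% and 2.61%. The list mean was 6.05 and 5.97 in 1 W TAC and 6.64 and 6.82 in 4 W TAC, against 6.31 and 6.70 in Sham. Whether atrial tissue in the samples had a part in the values of Kcnj3 and Kcnj5 was not tested.

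The ATP-sensitive channel opens when cellular ATP falls and is built from Kcnj11 or Kcnj8 with the sulfonylurea receptor Abcc9. Kcnj11 had 7.07 and 7.10 in 1 W TAC and 7.66 and 7.81 in 4 W TAC, against 8.10 and 7.67 in Sham. The 1 W TAC arrays were close together and below all others, and 1 of the 4 W TAC arrays lay below both Sham arrays by 0.01. The log2 ratio was -0.80 (SE 0.20, adjusted p = 0.259 by limma) at 1 week, a 1.74-fold lower signal, and -0.15 (SE 0.20) at 4 weeks. Kcnj8, the subunit best known from vascular smooth muscle, had 7.73 and 7.37 in 1 W TAC and 7.85 and 8.25 in 4 W TAC, against 7.93 and 7.69 in Sham. Its 1 W TAC and Sham arrays overlapped, with log2 ratios of -0.26 (SE 0.23) at 1 week and 0.24 (SE 0.23) at 4 weeks. Abcc9 had 9.11 and 8.61 in 1 W TAC and 9.59 and 10.08 in 4 W TAC, against 10.07 and 9.71 in Sham. It was lower at 1 week with no overlap, by a log2 ratio of -1.03 (SE 0.28, adjusted p = 0.276 by limma), and -0.06 at 4 weeks. Kcnj8 and Abcc9 are neighbours on chromosome 6, with 16248 bases between them in GRCm38.p6. The list mean of 9 markers of smooth muscle and pericytes, cells that use Kcnj8, was 8.49 and 8.60 in 1 W TAC and 8.60 and 8.58 in 4 W TAC, against 8.68 and 8.44 in Sham. Single markers went both ways, with 4 above 0 and 5 below at 1 week, among them Cspg4 at 0.57 and Myh11 at -0.895. The 4-week log2 ratio was 0.635 for Pdgfrb and -0.62 for Tagln.

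**Figure D3:**
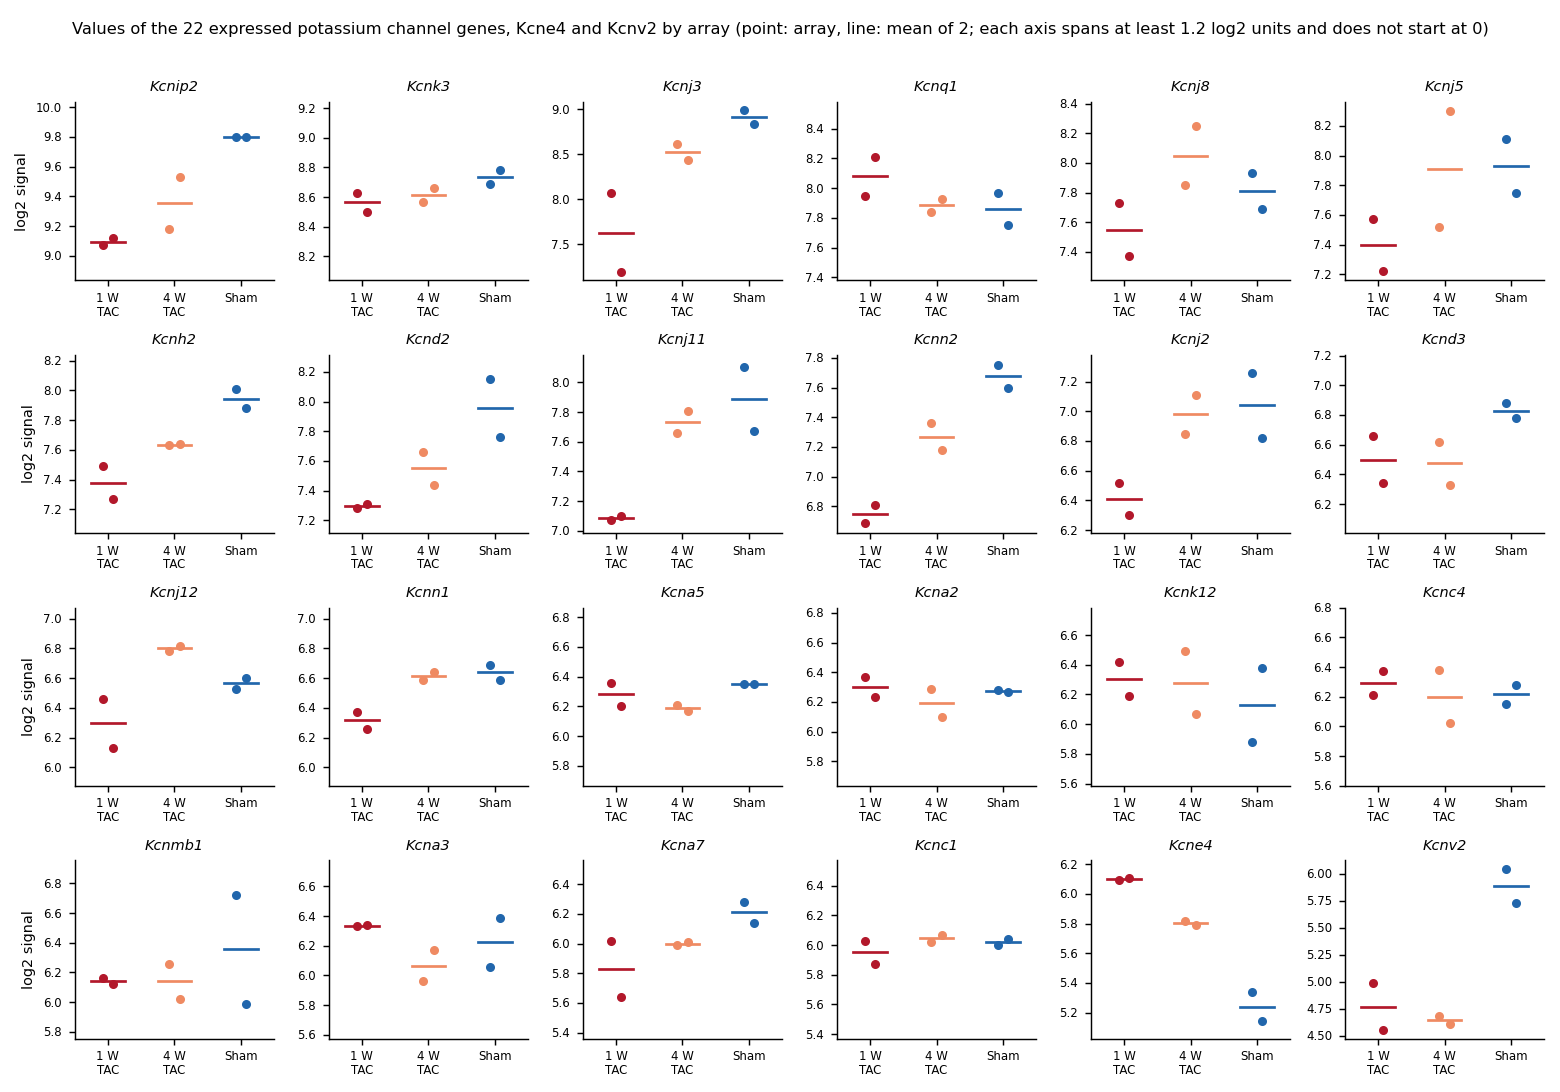
Log2 signal (y axis) of the 22 expressed potassium channel genes, Kcne4 and Kcnv2 on each array (points) by group (x axis: 1 W TAC, 4 W TAC, Sham), with the mean of the 2 arrays as a line. The axes differ between genes and do not start at 0. For Kcnip2, Kcnd2, Kcnj11, Kcnn2, Kcnj2 and Kcnj3 both 1 W TAC points lie below both Sham points, and Kcne4 runs the other way.

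Among the calcium-activated channels, Kcnn2, a small-conductance channel, had the lowest adjusted p of the 73 genes at 1 week. It had 6.69 and 6.81 in 1 W TAC and 7.36 and 7.18 in 4 W TAC, against 7.75 and 7.60 in Sham. The 3 groups were fully apart, in the order 1 W TAC, 4 W TAC, Sham by signal. The log2 ratio was -0.93 (SE 0.17, adjusted p = 0.182 by limma) at 1 week, a 1.90-fold lower signal, and -0.41 (SE 0.17, adjusted p = 0.899) at 4 weeks. When only rows with a single gene symbol were fitted, its adjusted p at 1 week by limma was 0.0406, so its call depends on which rows are tested. Kcnn1 had 6.37 and 6.26 in 1 W TAC and 6.59 and 6.64 in 4 W TAC, against 6.69 and 6.59 in Sham. Its log2 ratios were -0.33 (SE 0.16) and -0.03 (SE 0.16). Kcnmb1, the accessory subunit of the large-conductance channel in smooth muscle, had 6.16 and 6.12 in 1 W TAC, 6.26 and 6.02 in 4 W TAC, and 6.72 and 5.99 in Sham, so the groups overlapped. This gene lies inside the span of Kcnip1 on chromosome 11.

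Delayed rectifiers end the action potential. At both times 0 of their 5 expressed genes were 1.5-fold apart from Sham with no overlap. Over all expressed genes 5.43% were lower and 7.64% higher at 1 week, and 0.866% and 2.61% at 4 weeks. With 5 genes and shares of this size, a count of 0 does not set the class apart. Kcnh2, the pore subunit of the rapid component, had 7.49 and 7.27 in 1 W TAC and 7.63 and 7.64 in 4 W TAC, against 8.01 and 7.88 in Sham. All TAC arrays lay below Sham, and the log2 ratio of -0.57 (SE 0.17, adjusted p = 0.308 by limma) at 1 week was just under the 1.5-fold mark of 0.585. At 4 weeks it was -0.31 (SE 0.17). Kcnq1, the pore subunit of the slow component, had 7.95 and 8.21 in 1 W TAC and 7.84 and 7.93 in 4 W TAC, against 7.97 and 7.75 in Sham. Both TAC groups overlapped with Sham, while the 4 W TAC arrays lay below the 1 W TAC arrays. The log2 ratio of Kcnq1 at 1 week, 0.22 (SE 0.18), was the highest of the 22 expressed genes. Kcna5, which carries an ultrarapid current in mouse ventricle, had 6.36 and 6.20 in 1 W TAC and 6.21 and 6.17 in 4 W TAC, against 6.35 on both Sham arrays. Its log2 ratios were -0.07 (SE 0.16) and -0.16 (SE 0.16). Kcnc4 and Kcnc1 had log2 ratios within 0.08 of 0 in both TAC groups.

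The accessory Kcne subunits of the delayed rectifiers were all under the threshold, and a pair of them, Kcne4 and Kcne1, were higher in TAC at both times. Kcne4, which inhibits several voltage-gated channels when expressed with them, had 6.09 and 6.11 in 1 W TAC and 5.82 and 5.79 in 4 W TAC, against 5.34 and 5.14 in Sham. The groups were fully apart in the reverse order to Kcnn2. The log2 ratio was 0.86 (SE 0.16, adjusted p = 0.190 by limma) at 1 week, a 1.82-fold higher signal, and 0.57 (SE 0.16, adjusted p = 0.744) at 4 weeks, and with single-symbol rows alone the adjusted p by limma at 1 week was 0.0433. Kcne1, the partner of Kcnq1, had 5.13 and 4.92 in 1 W TAC and 5.27 and 5.05 in 4 W TAC, against 4.70 and 4.60 in Sham, with log2 ratios of 0.38 (SE 0.18) and 0.51 (SE 0.18). All TAC arrays lay above Sham for both genes, and neither reached the adjusted threshold over all rows. Irrespective of the fold, 19.2% of all rows lay wholly above Sham at 1 week and 15.4% at 4 weeks. Kcne2 and Kcne3 also lay wholly above Sham at 1 week, with log2 ratios of 0.245 and 0.405, and overlapped with it at 4 weeks. Kcne1l overlapped with Sham at both times.

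Kcnv2 encodes a subunit that forms no channel of its own and joins other voltage-gated subunits. It was the gene with the lowest 4-week log2 ratio. It had 4.99 and 4.55 in 1 W TAC and 4.68 and 4.61 in 4 W TAC, against 6.05 and 5.73 in Sham, and so was above a signal of 6 on 1 array alone. The log2 ratio was -1.12 (SE 0.22, adjusted p = 0.194 by limma) at 1 week, a 2.17-fold lower signal, and -1.25 (SE 0.22, adjusted p = 0.575) at 4 weeks, a 2.37-fold lower signal. With single-symbol rows alone its adjusted p by limma at 1 week was 0.0433. The 4 TAC arrays overlapped with each other, and the log2 ratio of 4 W TAC to 1 W TAC was -0.13 (SE 0.22).

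Of the remaining genes, Kcnk3, an acid-sensitive background channel, had 8.63 and 8.50 in 1 W TAC and 8.57 and 8.66 in 4 W TAC, against 8.69 and 8.78 in Sham. Its arrays did not overlap with Sham, but the differences were small, with log2 ratios of -0.17 (SE 0.16) and -0.12 (SE 0.16). Kcnk2, a stretch-activated background channel just outside the threshold, had 6.04 and 5.95 in 1 W TAC and 5.88 and 6.13 in 4 W TAC, against 5.66 and 5.80 in Sham, and log2 ratios of 0.27 (SE 0.17) and 0.28 (SE 0.17). Kcnj15, an inward rectifier known from epithelia, had 5.68 and 5.65 in 1 W TAC and 5.08 and 5.43 in 4 W TAC, against 5.19 and 5.12 in Sham, with log2 ratios of 0.51 (SE 0.18, adjusted p = 0.386 by limma) and 0.10 (SE 0.18). Kcnab1 and Kcnk13 were chosen here after their values were seen, as was Kcne4 above. Kcnab1, a cytoplasmic beta subunit, had 4.50 and 4.43 in 1 W TAC and 4.56 and 4.96 in 4 W TAC, against 5.04 and 5.12 in Sham. Kcnk13, a background channel, had 4.41 and 4.22 in 1 W TAC and 3.91 and 4.13 in 4 W TAC, against 3.09 and 3.94 in Sham, so the spread of the Sham arrays was larger than the distance between the nearest arrays. With Kcnv2 and Kcnab1, 8 of the 73 genes (11%) were at least 1.5-fold lower at 1 week with no overlap, against 5.85% of all rows. With Kcne4 and Kcnk13, 2 of the 73 (2.74%) were higher, against 6.36% of all rows. Over all 73 genes, 37 had a log2 ratio within 0.2 of 0 at 1 week.

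The second comparison asked which of these differences stood after 4 weeks. No expressed potassium channel gene was at least 1.5-fold apart from Sham at 4 weeks. With no overlap and a 1.5-fold difference, 0 of 22 were lower, against 0.866% of expressed genes and 4.17% of all rows, and 0 of 22 were higher, against 2.61% of expressed genes and 3.01% of all rows. By the unadjusted p and the fold, 0 of 22 were lower, against 0.701% of expressed genes and 2.43% of all rows, and 0 were higher, against 2.21% of expressed genes and 1.94% of all rows. Over all 73 genes Kcnv2 met both criteria. By adjusted p, limma passed 0 of 73 genes and 0% of all rows. At an unadjusted p under 0.05 it counted 3 of the 73 (Kcnv2, Kcne4 and Kcne1), or 4.11% against 5.70% of all rows, with 0 of the 22 expressed genes among them. Without Sham array 2, 1 expressed gene, Kcnd2, met both criteria, and without 4 W TAC array 2, 1 other, Kcnip2. Without Sham array 1 and 4 W TAC array 1 together, 0 expressed genes met either criterion.

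Irrespective of the fold, 9 of the 22 lay wholly below Sham at 4 weeks, against 14.0% of expressed genes and 15.3% of all rows, and 1 (Kcnj12) wholly above, against 17.3% of expressed genes and 15.4% of all rows. The 9 were Kcnip2, Kcnk3, Kcnj3, Kcnh2, Kcnd2, Kcnn2, Kcnd3, Kcna5 and Kcna7, the last of which passed the threshold narrowly and with its highest mean in Sham. The median log2 ratio of the 22 was -0.14, with 17 of 22 below 0, against a median of 0.05 with 41.2% below 0 over all expressed genes. The 3 expressed genes of the transient outward current were all below Sham, with 4-week log2 ratios of -0.36 to -0.45, and Kcnj3 and Kcnn2 had -0.39 and -0.41. Kcnj2, Kcnj11 and Kcnj5 were within 0.15 of 0. Single arrays moved these values: leaving out 1 array at a time, the 4-week log2 ratio ran from -0.62 to -0.27 for Kcnip2, from -0.60 to -0.21 for Kcnd2 and from -0.41 to 0.37 for Kcnj5. Since the 2 comparisons use the same Sham arrays, their values are set side by side here and no agreement between them is counted.

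**Figure D4:**
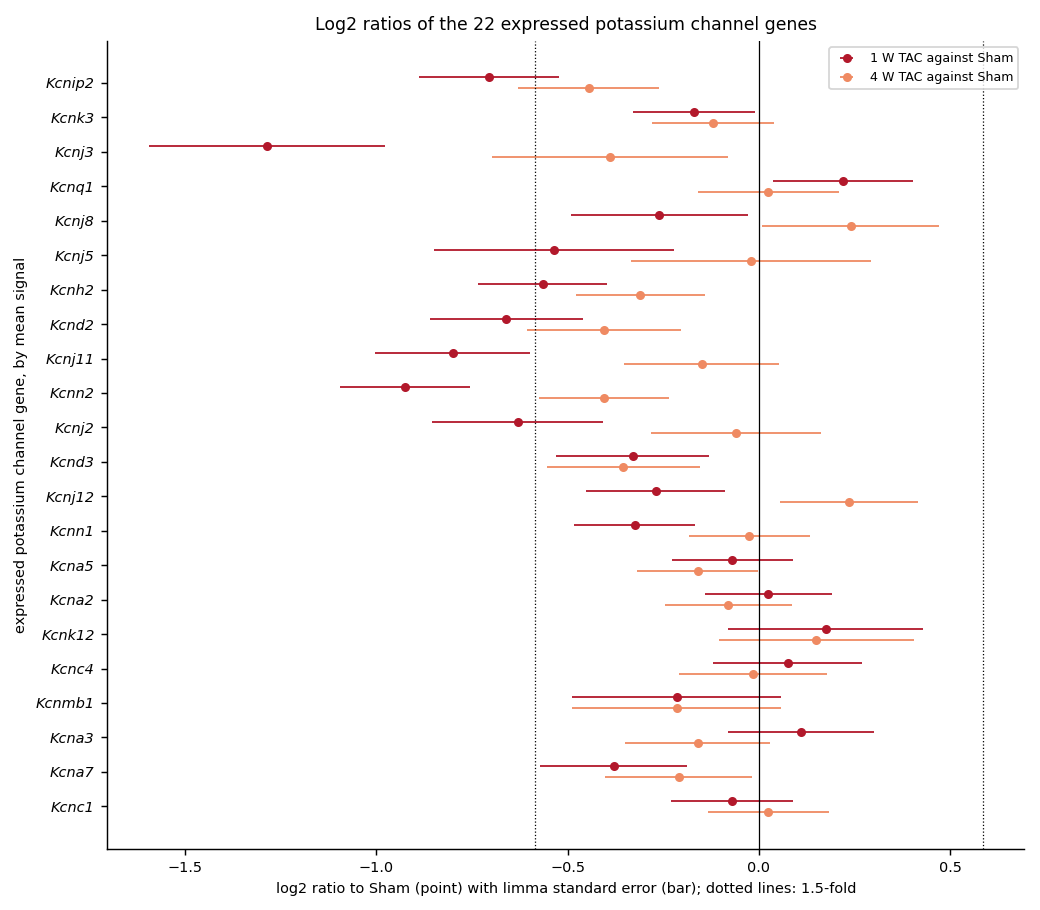
Log2 ratio to Sham (x axis) with the limma standard error (bar) for the 22 expressed potassium channel genes (y axis, by mean signal), at 1 W TAC (red) and 4 W TAC (orange). The dotted lines mark 1.5-fold. 6 red points lie beyond the left line, the farthest being Kcnj3 at -1.29, and no orange point lies beyond either line.

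The TAC groups were compared with each other directly. The Sham arrays did not enter these log2 ratios, but they did enter the shared estimate of the spread behind the SE and p values. Kcnj3 and Kcnj11 were at least 1.5-fold higher in 4 W TAC than in 1 W TAC with no overlap, which is 2 of 22 expressed genes against 3.39% of all rows and 2.74% of expressed genes. Both also met the unadjusted p and the fold, against 1.83% of all rows and 2.10% of expressed genes. By this criterion 0 genes passed without 1 W TAC array 2, and without 4 W TAC array 2 Kcnn2 alone passed. The log2 ratio of 4 W TAC to 1 W TAC was 0.90 (SE 0.31, adjusted p = 0.716 by limma) for Kcnj3 and 0.65 (SE 0.20, adjusted p = 0.692) for Kcnj11. It was 0.52 (SE 0.17) for Kcnn2, 0.57 (SE 0.22) for Kcnj2 and 0.51 (SE 0.18) for Kcnj12, 3 genes with an unadjusted p under 0.05 that missed the 1.5-fold mark. For Kcnip2 and Kcnd2 it was 0.26 (SE 0.18) and 0.26 (SE 0.20), and for Kcnd3 -0.03 (SE 0.20). In the downward direction, 0 of 22 were lower by the unadjusted p and the fold, against 3.15% of all rows, and 0 of 22 were 1.5-fold lower with no overlap, against 4.98%. Kcnj14, under the threshold, was 1.5-fold lower with no overlap through the array named above. By adjusted p, limma passed 0 of 73 genes and 0% of all rows, and at an unadjusted p under 0.05 it counted 5 of the 73 (6.85%), against 6.52% of all rows. Without Sham array 1 and 4 W TAC array 1, 5 expressed genes were at least 1.5-fold higher in 4 W TAC with no overlap (Kcnj3, Kcnj8, Kcnj5, Kcnj11 and Kcnj2), as were the same 5 without 4 W TAC array 1 alone. Without 1 W TAC array 1 there were 6, with Kcnj12, and without 1 W TAC array 2 there was 1, Kcnj11. The median log2 ratio was 0.21 for the 22 genes (0.08 without 1 W TAC array 2) and 0.06 for all expressed genes.

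Genes that assist or regulate these channels were taken from a list of 22, of which 17 were measured and 13 expressed. At 1 week, 2 of the 17 were at least 1.5-fold lower with no overlap, against 5.85% of all rows, and 0 higher, and at 4 weeks 0 in either direction. The 2 were Abcc9, described above, and Klf15, a Kruppel-like factor known in mouse heart to drive the rhythm of Kcnip2. Klf15 had 6.93 and 6.16 in 1 W TAC and 7.02 and 7.26 in 4 W TAC, against 7.38 and 7.25 in Sham, with log2 ratios of -0.77 (SE 0.29, adjusted p = 0.396 by limma) and -0.18 (SE 0.29). Both 1 W TAC arrays lay below all others but were 0.77 apart. Irx5, a repressor of Kcnd2 across the mouse ventricular wall, had 6.08 and 5.96 in 1 W TAC and 6.56 and 6.16 in 4 W TAC, against 6.27 and 6.37 in Sham, with a 1-week log2 ratio of -0.30 (SE 0.20). Between the TAC groups, 3 of the 17 were at least 1.5-fold higher in 4 W TAC with no overlap, against 3.39% of all rows: Abcc9, Irx4 and Klf15. Irx4, a ventricle-specific transcription factor, had 7.51 and 7.91 in 4 W TAC, against 6.99 and 7.20 in 1 W TAC. Dpp6, an accessory subunit of the transient outward channel known from neurons, had signals of 3.78 to 4.11 over the 6 arrays, and log2 ratios of 0.04 (SE 0.18) at 1 week and 0.12 (SE 0.18) at 4 weeks.

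**Figure D5:**
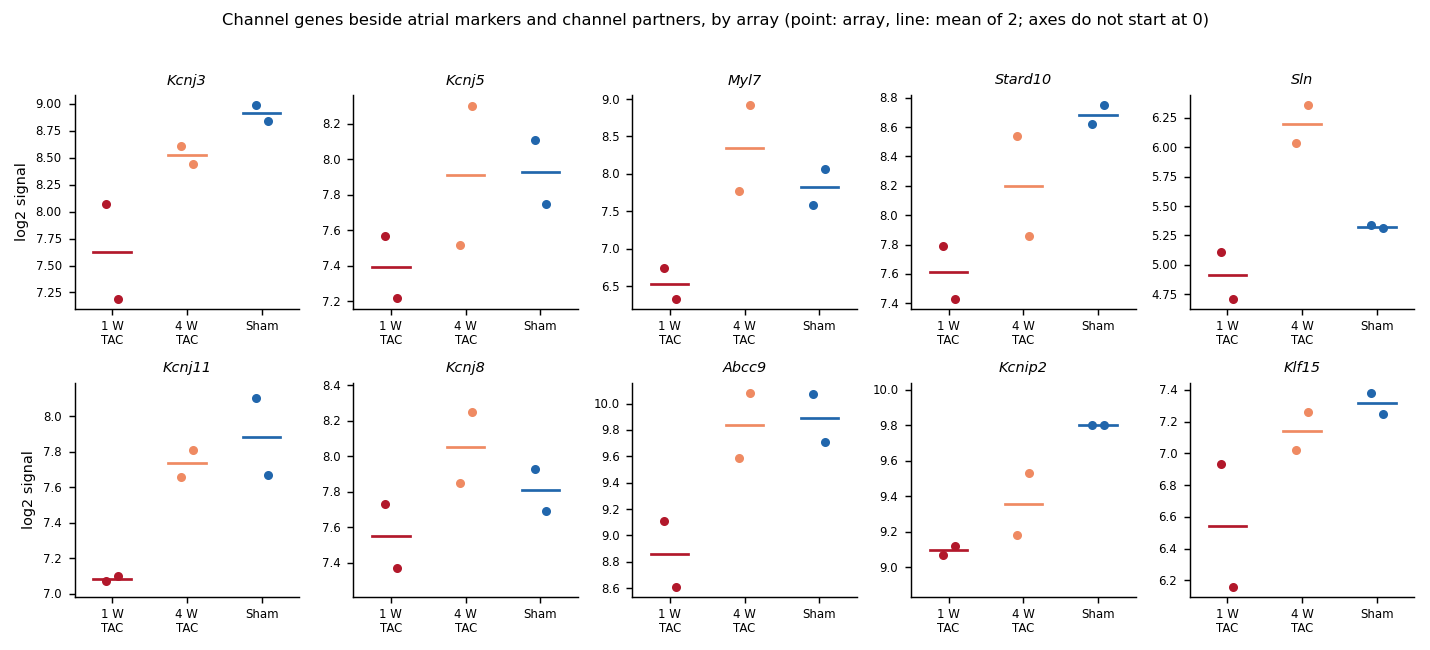
Log2 signal (y axis) by array (points) and group (x axis: 1 W TAC, 4 W TAC, Sham), with the mean of the 2 arrays as a line, for Kcnj3 and Kcnj5 beside the atrial genes Myl7, Stard10 and Sln, and for Kcnj11, Kcnj8 and Kcnip2 beside Abcc9 and Klf15. Of the 5 measured atrial markers, Dkk3 and Bmp10 are not shown: Dkk3 was above Sham on both 1 W TAC arrays, and Bmp10 overlapped with Sham. The axes do not start at 0. Both 1 W TAC points of Kcnj3, Kcnj5, Myl7, Stard10, Sln, Kcnj11, Abcc9, Kcnip2 and Klf15 lie below both Sham points.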

How the data were processed

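Gene expression was measured in left ventricles of 6 male C57BL/6 mice, 2 per group and 1 mouse per array. The deposited log2 values come from the authors' RMA run in Affymetrix Expression Console, which corrects the background, equalizes the distributions of the arrays by quantiles and summarizes the probes of each transcript cluster. RNA was extracted with Trizol per the labels and with a column kit per the methods. Its version, the build and the annotation level are not stated. The 23332 rows were joined to symbols by the platform's annotation, which can be old; 14996 rows had 1 symbol, 1019 several and 7317 none. Symbols and positions were looked up in RefSeq (GRCm38.p6).

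One mean per group was fitted to all 6 arrays with limma 3.58.1 in R 4.3.3 (lmFit and eBayes, residual df 3, prior df 2.68, prior SD 0.219), with Benjamini-Hochberg adjustment across the whole table. Plots were made in Python 3.11.15 with matplotlib 3.10.9. The fit was tested on simulated data. The p values measure the spread between these mice. The number of arrays limits the precision. The members, gene lists and tests were chosen with earlier results of these data known. The genes named are the known ventricular subunits, those the study lists as regulated, expressed members called by any criterion, the 3 genes nearest the threshold on each side, members under it with a log2 ratio of 1 or more, the 3 highest, and listed partners called. The alternatives were a replicate block, arrays left out, other scalings, filters, variance models, thresholds and the methods' t-test. Exon-level values were not analysed here.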

Additional observations from a re-analysis of the deposited data

Results flagged for a closer look

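Kcnj12 was below Sham on both 1 W TAC arrays and above Sham on both 4 W TAC arrays. It was the 1 of 28 named members examined in which the groups lay wholly on opposite sides of Sham. Some of the 28 were named because of their values. Kcnj9, not among the 28 and with a mean of 4.86, did the same. Over all rows, 20.8% lay wholly below Sham at 1 week and 15.4% wholly above at 4 weeks. How many rows did both was not counted. The log2 ratio of 4 W TAC to 1 W TAC was 0.505 (SE 0.18, unadjusted p = 0.0335, adjusted p = 0.728 by limma), so the difference between the TAC groups did not pass the test over all rows.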

How the results depend on the processing

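Of 270 counts and medians recomputed under the alternatives, 239 stayed within the margins of the values given. All 463 log2 ratios of called genes kept their sign, with 34 moving by more than the spread of the arrays. The kept sign was in large part fixed beforehand and says little about robustness. The groups of called genes did not overlap, so leaving out an array could not reverse the sign. The replicate block left the log2 ratios as they were. Of 1351 log2 ratios of genes not called, 67 changed sign.

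Leaving out 1 array at a time, expressed genes lower in 1 W TAC numbered 4 to 7 by the unadjusted p and the fold and 4 to 8 by no overlap (here always with the 1.5-fold difference), the low end without Sham array 1 and the high end without Sham array 2. The 1-week median ran from -0.44 (without 1 W TAC array 1) to -0.18 (without 1 W TAC array 2). Lower at 4 weeks were 0 to 1 by either criterion (Kcnd2 without Sham array 2, Kcnip2 without 4 W TAC array 2), with a median of -0.18 to -0.09. Higher in 4 W TAC than 1 W TAC were 0 to 3 by the unadjusted p and 1 to 6 by no overlap, the low ends without 1 W TAC array 2, with a median of 0.08 to 0.24.

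Without Sham array 1 and 4 W TAC array 1 together, 3 genes were lower at 1 week by the unadjusted p, and 5 higher in 4 W TAC than 1 W TAC by no overlap. The methods' t-test, which has fewer degrees of freedom, gave 2 lower at 1 week (Kcnip2 and Kcnn2) and 1 higher in 4 W TAC than 1 W TAC (Kcnj11), as quantile normalization did (1). Centring each array made the 1-week median -0.39. With adjusted p, 2 genes passed at 1 week when only rows with a mean of 6 or more were fitted (Kcnj3 and Kcnn2) and 3 with single-symbol rows (Kcnn2, Kcne4 and Kcnv2), against 0 over all rows; fewer rows were tested. A threshold of 5 added Kcne4 (1 higher at 1 week) and Kcnv2 (1 lower at 4 weeks) and made the medians -0.075 at 1 week, -0.0175 at 4 weeks and 0.00 between the TAC groups; a threshold of 7 made them -0.61, -0.23 and 0.38. For other differences the cause was not tested.

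The replicate numbers were taken not to pair the mice, since the sample titles give a number and no pairing. The differences between arrays 1 and 2 correlated over rows at 0.084 (1 W TAC with 4 W TAC), -0.148 (1 W TAC with Sham) and -0.171 (4 W TAC with Sham). Whether a batch lay behind these correlations was not tested. With the replicate block, 5 expressed genes were lower at 1 week, 0 at 4 weeks, and 2 higher in 4 W TAC than 1 W TAC. With the Sham numbers exchanged, a pairing chosen after seeing the data, 6 were lower at 1 week and 0 at 4 weeks.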
